A study of Mus musculus with 9 samples.

Results

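The genes described here are the chemokines and chemokine receptors of the mouse, taken by name: every row of the nascent transcription table whose symbol starts with Ccl, Cxcl, Ccr, Cxcr or Ackr followed by a digit. The rule found 58 genes, of which 11 were listed at 0 in all 6 libraries, so that 47 remained among the 22374 genes of the table that were not 0 throughout (24505 genes in all). They comprised 15 CC ligands, 13 CXC ligands, 11 CC receptors, 5 CXC receptors and 3 atypical receptors. Ccl9 and Ccl20 were given with the gene group as its markers.

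Chemokines are small secreted proteins that draw leukocytes along a gradient by binding receptors with several membrane-spanning helices that signal through G proteins. Atypical receptors bind chemokines without that G protein signal and take them up. In the gut, the epithelium over lymphoid follicles is known for Ccl20, which attracts cells bearing Ccr6, and for Ccl9, a ligand of Ccr1, while the lining of the small intestine is known for Ccl25, the ligand of Ccr9. M cells are the antigen-sampling cells of that follicle-associated epithelium, and RANKL, a cytokine of the tumour necrosis factor family that acts through NF-kB, is known to drive their formation.

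GRO-seq, which maps RNA as it is made by engaged polymerase in isolated nuclei, was performed on mini-gut cultures of mouse duodenum. The cultures were RANKL, labelled as the M cell (2 libraries, numbered with no animal given), ENRI, labelled as the enterocyte (2 libraries, 1 from each of mouse 1 and mouse 2), and WENRC, labelled as the stem cell (2 libraries, from mouse 1 and mouse 2). ChIP-seq of H3K27me3, the histone mark of Polycomb repression, covered RANKL (2 libraries pooled by the authors) and WENRC (1 library). No strain, age, genotype, time or dose is given in the sources used here, and the culture names are used as written. P-values rest on 2 libraries a culture, and nothing says that the RANKL libraries came from separate cultures or animals. They then measure only the spread between these libraries, which may be technical.

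Values are the log2 values deposited by the authors. On this scale the libraries of a low gene are compressed toward a common value, so a difference of such a gene is understated. The files give no read totals for GRO-seq, so its depth is unknown. The 2 RANKL libraries lay closer to each other (SD of the difference over all tested genes 0.22) than the ENRI (0.699) or WENRC libraries (0.421). By the file header both RANKL libraries are merged reads from a sequencing of their own, so sequencing and RANKL culture cannot be told apart. Of 10 M cell markers (Ccl9 among them), 8 were higher in RANKL than in ENRI and 7 higher than in WENRC. Of 10 enterocyte markers, 5 were lower in RANKL and 8 lower in WENRC than in ENRI, and of 10 stem cell markers, 7 were higher in WENRC than in ENRI and 5 higher in RANKL than in ENRI. In these bulk cultures, fewer cells of a type and less RNA per cell cannot be told apart. Of 12 tested leukocyte markers, limma called 0 between RANKL and either other culture, where Ms4a1 (against ENRI) and Cd68 (against WENRC) had an unadjusted p under 0.05, and 2 were higher in WENRC than in ENRI. The 19 leukocyte markers found in the table, tested or not, had a summed log2 level of 9.33 to 9.72 in the 6 libraries. Levels differed widely within this list. Cd3e lay between 2.42 and 3.07 and Ptprc, the pan-leukocyte marker, between 3.07 and 4.68. Higher were Cd68 (7.51 to 8.52), Csf1r (6.78 to 7.51) and Fcer1g (6.77 to 7.06). None of the 19 markers found in the table was at exactly 0.

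The upstream sequences of 5 genes are printed with any matches to a known promoter element, the kappaB consensus. Ccl20 and Ccl9 are 2 ligands that rose in RANKL over WENRC and carry a match. Cxcl1 and Cxcl10 are 2 ligands with a match that did not pass the test, and Ccl6 is 1 that rose without a match. GRO-seq signal was not measured over these windows. Each run is the 250 bases before the RefSeq gene start on GRCm38.p6, 5′ to 3′ on the strand of the gene, with the kappaB matches of either strand in capitals. The position of a match is counted from the start, with -1 the last base before it: -80 to -71 in Ccl20, -35 to -26 in Ccl9, -71 to -61 in Cxcl1 (2 overlapping matches) and between -159 and -94 in Cxcl10 (4 matches in 2 stretches).
Ccl20: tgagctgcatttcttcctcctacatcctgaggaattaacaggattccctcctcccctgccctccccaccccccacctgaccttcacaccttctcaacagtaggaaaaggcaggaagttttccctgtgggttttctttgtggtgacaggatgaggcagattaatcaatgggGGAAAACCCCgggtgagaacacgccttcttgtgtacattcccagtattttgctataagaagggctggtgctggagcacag
Ccl9: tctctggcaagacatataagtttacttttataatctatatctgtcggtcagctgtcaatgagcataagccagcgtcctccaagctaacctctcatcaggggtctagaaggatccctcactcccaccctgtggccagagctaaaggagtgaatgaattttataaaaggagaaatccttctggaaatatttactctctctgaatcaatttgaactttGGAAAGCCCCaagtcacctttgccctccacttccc
Cxcl1: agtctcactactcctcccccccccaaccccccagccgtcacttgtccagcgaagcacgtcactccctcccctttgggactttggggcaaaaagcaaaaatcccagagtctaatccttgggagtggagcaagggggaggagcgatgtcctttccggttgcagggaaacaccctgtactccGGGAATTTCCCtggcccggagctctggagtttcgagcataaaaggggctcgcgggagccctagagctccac
Cxcl10: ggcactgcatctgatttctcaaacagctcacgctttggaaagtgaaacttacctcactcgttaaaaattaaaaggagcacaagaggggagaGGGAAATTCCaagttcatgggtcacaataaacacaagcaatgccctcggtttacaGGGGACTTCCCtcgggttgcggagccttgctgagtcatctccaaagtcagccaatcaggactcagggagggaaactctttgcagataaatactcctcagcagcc
Ccl6: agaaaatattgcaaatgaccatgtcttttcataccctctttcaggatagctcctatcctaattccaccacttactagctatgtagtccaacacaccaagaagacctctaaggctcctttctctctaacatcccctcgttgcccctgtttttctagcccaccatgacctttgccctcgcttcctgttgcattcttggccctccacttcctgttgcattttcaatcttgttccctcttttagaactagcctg

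A RefSeq promoter was at hand for 34 of the 47 genes. The kappaB consensus, the binding motif of NF-kB, was matched before the start in 11 of them (32.4%), against 8.23% of all 27025 genes with a promoter in the RefSeq table. Among the genes that passed a test below and had a promoter, 2 of 6 held a match (Ccl20 and Ccl9), as did 2 of 6 that were tested and passed none (Cxcl1 and Cxcl10). The TATA element TATAAA was found on either strand in 12 (35.3%) against 14.3% of all genes, including Ccl9, Ackr3, Cxcr4 and Ackr4. The letters GGAA, the core of motifs of ETS factors such as Spib, were found in the same way in 97.1% of these promoters and 94.2% of all. A match describes the letters of this window and nothing about what binds there.

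The nascent signal was tested for 18 of the 47 genes, those with at least 2 libraries at a value of log2 of 10 (3.32) or more. The filter is set by the higher libraries, so the 18 are not a sample of the family. They were 6 CC ligands (Ccl5, Ccl6, Ccl9, Ccl20, Ccl25, Ccl27a), 4 CXC ligands (Cxcl1, Cxcl10, Cxcl16, Cxcl17), 3 CC receptors (Ccr7, Ccr9, Ccr10), 3 CXC receptors (Cxcr4, Cxcr5, Cxcr6) and the atypical receptors Ackr3 and Ackr4. Just inside the limit stood Cxcl10, Ccr10 and Ccl5, with a second-highest library of 3.40, 3.65 and 3.94, and just outside it Ccr4, Ccr6 and Ccl2, with 3.16, 2.86 and 2.83. The other 29 genes had values from -1.35 to 3.89, the highest being Ccl2, a monocyte attractant, in ENRI 1, and 19 of them were under 1 in all 6 libraries. Listed at 0 in all 6 were Ccl3, Ccl4, Ccl12, Ccl19, Ccl21a, Ccl21b, Ccl21c, Ccl24, Ccl28, Cxcr1 and Ackr1. A gene listed at 0 or low can have had reads that the authors' counting did not assign to it.

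Per kilobase of gene, on the log2 scale and over all 6 libraries, the highest levels were those of ligands of the gut lining: Cxcl16 (7.24), Ccl20 (6.28) and Ccl25 (6.07), followed by the neutrophil attractant Cxcl1 (4.31) and by Cxcr5 (3.55). In RANKL alone Ccl9 had a level per kilobase of 5.53, the fourth of the 18 after Cxcl16 (7.71), Ccl20 (7.70) and Ccl25 (6.19), whereas in ENRI and WENRC it stood at 1.64 and 2.11. Cxcl16 and Ccl20 in RANKL cannot be ranked, since their libraries differed by more than the gap between them. Over all 6 libraries Ackr3 had 0.19, the mean of cultures that differed: 2.06 in RANKL, -0.79 in ENRI and -0.69 in WENRC.

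**Figure D1:**
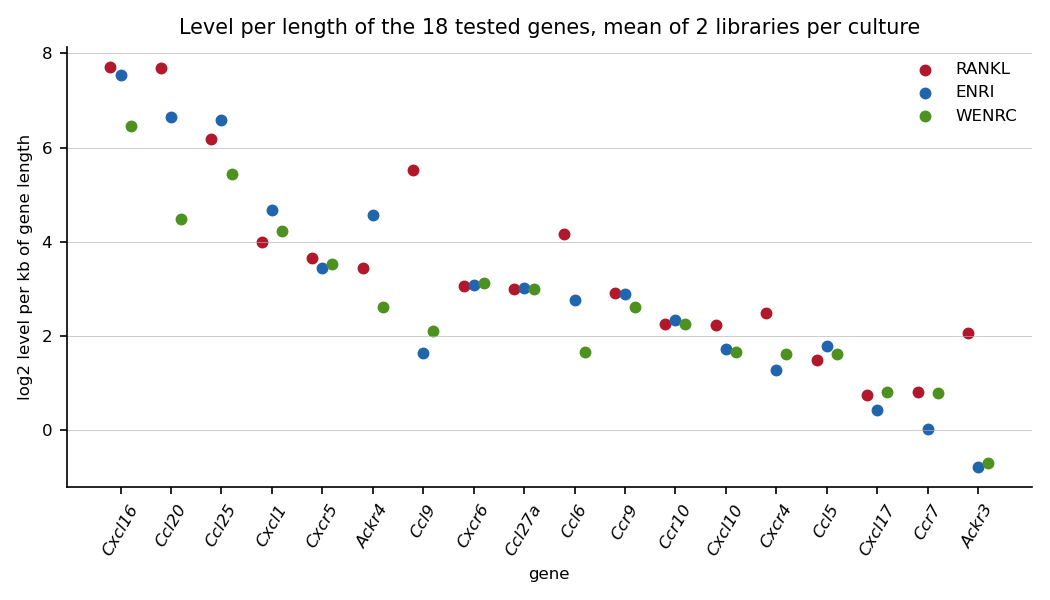
Log2 level per kilobase of gene length (vertical axis) of the 18 tested chemokine and receptor genes, ordered by their mean over 6 libraries; each point is the mean of 2 libraries of a culture. Cxcl16, Ccl20 and Ccl25 lead, and Ccl9 stands at 5.53 in RANKL against 1.64 in ENRI and 2.11 in WENRC.

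RANKL was first set against ENRI, the enterocyte-labelled culture. Chemokine ligands Ccl9, Ccl6 and Ccl20 and the receptors Ackr3, Cxcr4 and Ccr7 rose, and Ackr4 fell. These were 6 of 18 tested genes higher (33.3%) where 10.4% of all 16563 tested genes were called higher, and 1 lower (5.56%) where 10.5% of all were (limma, Benjamini-Hochberg adjusted p under 0.05). The median log2 change of the 18 was 0.20 against -0.005 over all genes, with 11 above 0 and 7 below. Ackr3 and Cxcl10, both among the 11, passed the filter through RANKL alone and so could enter only as higher. In the authors' deposited table the 6 higher genes and the 1 lower gene were the same, where 8.55% and 11.0% of the tested genes passed.

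RANKL was then set against WENRC, the stem-cell-labelled culture. Ccl9, Ccl20, Ackr3, Ccl6, Cxcl16 and Cxcr4 rose, 6 of 18 (33.3%) where 8.53% of all tested genes were called higher. None was called lower (0 of 18, against 3.62% of all, limma). The 9 genes with an unadjusted limma p under 0.05 were all higher in RANKL. Of all 16563 tested genes, 4858 had such a p in either direction. Of these 9, Ackr3 and Cxcl10 passed the filter through RANKL alone and so could enter only as higher. The median change of the 18 was 0.44 against -0.007 over all genes, with 14 above 0. Enterocyte markers moved in the same comparison, with 5 of 10 higher in RANKL than in WENRC and 0 lower (median change 0.89), and a summed log2 level of 14.73 and 14.87 for RANKL, 15.68 and 16.48 for ENRI, and 13.34 and 12.43 for WENRC. Apoa1, an enterocyte apolipoprotein, had the largest change of the 10, 4.57 (limma FDR 0.00144). Rbp2 (-0.808), Lct (-0.595) and Fabp2 (-0.447) changed the other way without a call, Lct at an unadjusted limma p of 0.0195. Of 10 stem cell markers, 1 was called higher, Tnfrsf19 (1.69, limma FDR 0.0129), and 1 lower, Lgr5 (-3.02, FDR 0.00166). The median change of these 10 was -0.07. The part of these enterocyte and stem cell markers in the family's changes was not tested. The authors' deposited table called 9 higher, adding Ackr4, Ccl25 and Cxcl10, and 0 lower, where 16.7% and 11.1% of the tested genes passed.

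Between WENRC and ENRI, which came from the same mice, Ccl20, Ackr4, Ccl6 and Cxcl16 were lower in WENRC, 4 of 18 (22.2%) where 9.74% of all tested genes were called lower. Ccr7 was higher, 1 of 18 (5.56%) where 4.85% of all were. The median change of the 18 was -0.07 against -0.014 over all genes. The authors' deposited table called 5 lower, adding Ccl25, and 0 higher, where 9.24% and 3.30% of the tested genes passed. In limma's test 6 of the 18 genes had an unadjusted p under 0.05, as had 5385 of all 16563 tested genes. Across the 3 comparisons, which share libraries, 8 of the 18 genes (44.4%) passed at least once, against 30.4% of all tested genes.

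**Figure D2:**
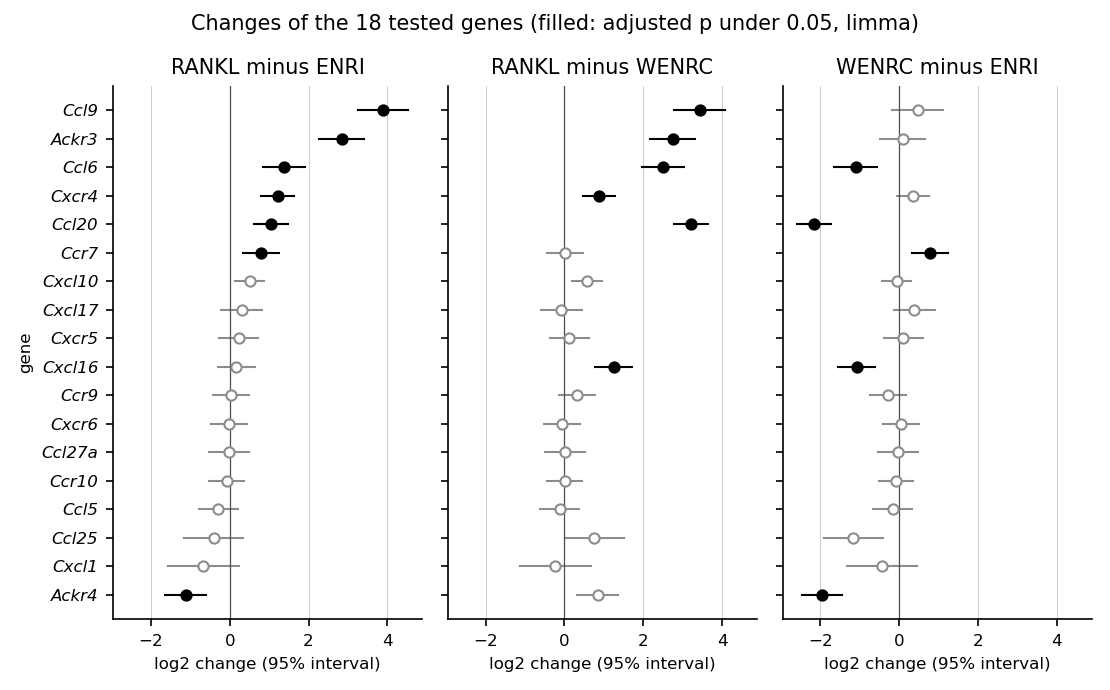
Log2 change (horizontal axis, with its 95% interval from limma) of each of the 18 tested genes in the 3 comparisons; filled points have an adjusted p under 0.05. Ccl9, Ackr3, Ccl6, Cxcr4 and Ccl20 lie to the right of 0 in both comparisons with RANKL, and Ccl20 and Ackr4 lie farthest to the left in WENRC minus ENRI.

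Ccl9 (NM_011338, mm9 chromosome 11, 83386419 to 83392138) is a CC ligand of Ccr1 that attracts myeloid and dendritic cells. On the deposited log2 scale it had the largest change of the 18 in RANKL over either culture. On the scale of the authors' deposited table its changes were 5.56 over ENRI and 4.78 over WENRC. There Ackr3 changed more over both cultures, and Ccl6 changed more over WENRC (5.48). The values of Ccl9 were 8.08 and 8.02 in RANKL, 4.50 and 3.82 in ENRI, and 4.62 and 4.62 in WENRC. Both RANKL libraries lay above all others by more than any pair of libraries of 1 culture differed. The log2 change was 3.89 over ENRI (SE 0.26, limma FDR 0.00191) and 3.43 over WENRC (SE 0.26, FDR 0.00218). Between WENRC and ENRI it was 0.47, with a 95% interval from -0.17 to 1.11 (limma FDR 0.278).

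Ccl20 (NM_016960, chromosome 1, 83113341 to 83115742), the ligand of Ccr6, took 3 separate levels. The libraries stood at 9.00 and 8.92 in RANKL, 7.78 and 8.05 in ENRI, and 5.84 and 5.65 in WENRC, with no overlap between any 2 cultures. RANKL exceeded ENRI by 1.04 (SE 0.18, limma FDR 0.0139) and WENRC by 3.22 (SE 0.18, FDR 0.00142). The enterocyte-labelled culture also lay above the stem-cell-labelled one, with WENRC at -2.17 against ENRI (SE 0.18, limma FDR 0.00624).

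Ccl6 (NM_009139, chromosome 11, 83401388 to 83406589), another CC ligand of Ccr1, had the same order of cultures as Ccl20. Values of 6.59 and 6.48 in RANKL, 5.35 and 4.95 in ENRI, and 3.94 and 4.15 in WENRC did not overlap. Its changes were 1.38 over ENRI (SE 0.22, limma FDR 0.0117) and 2.49 over WENRC (SE 0.22, FDR 0.00329), and WENRC stood at -1.11 against ENRI (SE 0.22, FDR 0.0275). Ccl6 lies wholly inside the non-coding gene E230016K23Rik of the other strand, and how strand was handled in counting is not given in the sources used here, so reads of the pair cannot be told apart. E230016K23Rik was itself called in the same directions, with changes of 1.08 (limma FDR 0.0161), 2.69 (FDR 0.00193) and -1.61 (FDR 0.0107).

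Ccl9 and Ccl6 are neighbours, 9250 bp apart within a cluster of CC ligands that spans 138904 bp. The cluster did not move as a block. Ccl5, which attracts T cells and is the next chemokine gene on the other side of Ccl9, had 3.78 and 3.68 in RANKL, 3.84 and 4.21 in ENRI, and 3.94 and 3.78 in WENRC. It passed no test (limma FDR 0.346 over ENRI). Ccl3 and Ccl4 were listed at 0 in every library. In the cluster of Ccl2, Ccl7, Ccl11, Ccl12, Ccl8 and Ccl1 on the same chromosome, no gene reached the filter, and Ccl2 alone exceeded 1, with 3.89 in ENRI 1 and 2.54 to 2.83 in the other libraries.

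Cxcl16 (NM_023158, chromosome 11, 70267736 to 70273486), the ligand of Cxcr6, which exists in a membrane-bound and a soluble form, was high in both RANKL and ENRI. It had 10.14 and 10.33 in RANKL, 10.27 and 9.86 in ENRI, and 8.84 and 9.13 in WENRC. The RANKL and ENRI libraries overlapped (change 0.17, 95% interval -0.30 to 0.65, limma FDR 0.567), and both lay above WENRC, by 1.25 for RANKL (SE 0.19, limma FDR 0.0145), with WENRC at -1.08 against ENRI (SE 0.19, FDR 0.0223). It shares 362 bp with Zmynd15 of the other strand, which had changes of 0.51, 1.64 and -1.13 in the 3 comparisons (limma FDR 0.214, 0.0153 and 0.0409).

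Ccl25 (NR_033527, chromosome 8, 4325210 to 4360020), the ligand of Ccr9 and the small intestine's T cell homing signal, had high values in every library and passed no test. It stood at 11.34 and 11.27 in RANKL, 11.26 and 12.17 in ENRI, and 10.73 and 10.38 in WENRC. The ENRI libraries enclosed both RANKL values, and the WENRC libraries lay below all others. The changes were -0.41 over ENRI (limma FDR 0.386), 0.75 over WENRC (FDR 0.169) and -1.16 in WENRC against ENRI (FDR 0.056), while the authors' deposited table gave the last 2 adjusted p-values of 4.5e-06 and 0.0122.

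Cxcl1 (NM_008176, chromosome 5, 91320271 to 91322141), which attracts neutrophils, had 4.87 and 4.94 in RANKL, 6.11 and 5.05 in ENRI, and 5.32 and 4.96 in WENRC, so that ENRI 1 alone stood apart (change of RANKL over ENRI -0.67, limma FDR 0.242). Its neighbours Cxcl2, Cxcl3, Cxcl5 and Cxcl15 did not reach the filter. Cxcl10, an interferon-induced ligand of Cxcr3 that lies inside Art3 of the other strand, had 3.41 and 3.40 in RANKL, above 2.82 to 2.95 in the other 4 libraries, with changes of 0.51 (limma FDR 0.0662) and 0.57 (FDR 0.0656). Like Ackr3, it passed the filter through its RANKL libraries alone, and the authors' deposited table gave it an adjusted p of 0.0356 over WENRC. Cxcl9 and Cxcl11 were between 1.86 and 2.56.

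**Figure D3:**
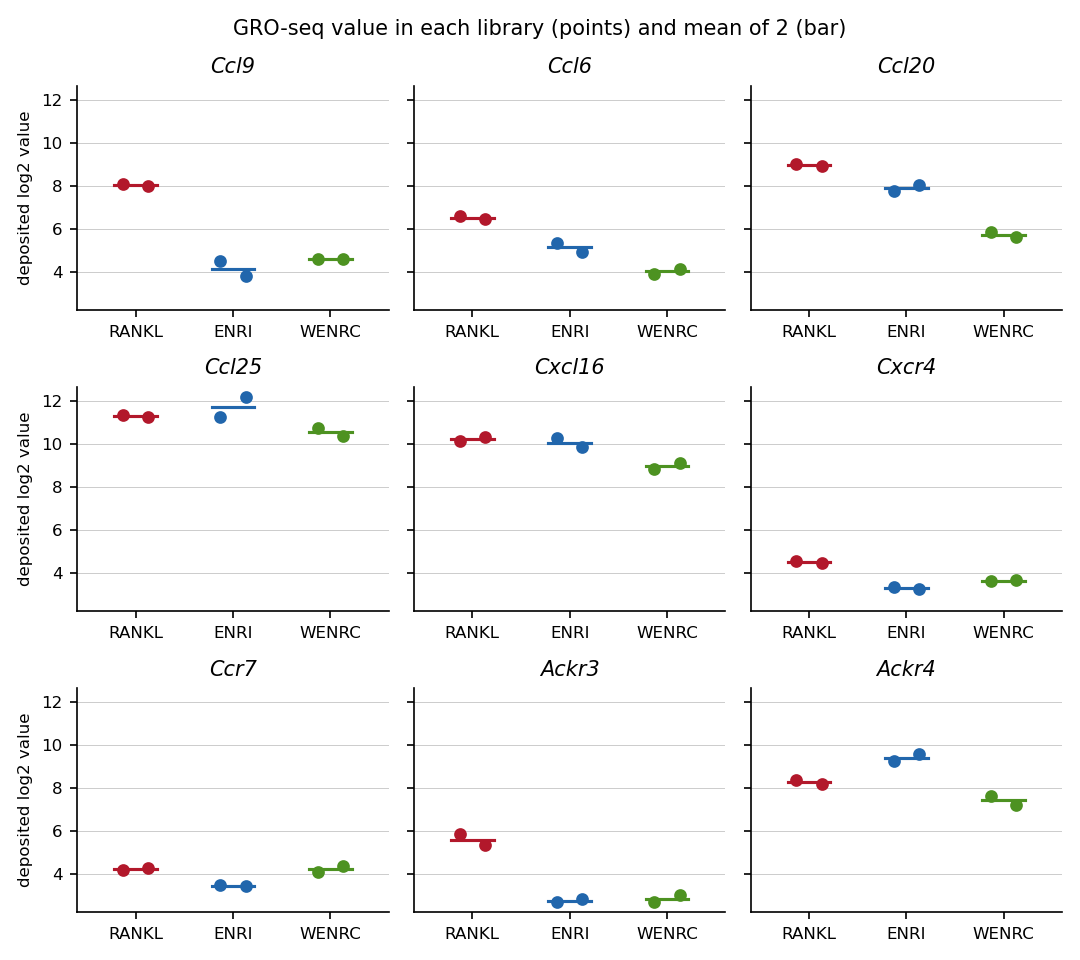
Deposited log2 GRO-seq value (vertical axis) of 9 genes in each of 6 libraries; points are libraries and bars the mean of 2. In Ccl9, Ccl20, Ccl6, Ackr3 and Cxcr4 both RANKL libraries lie above the other 4, and in Ackr4 both ENRI libraries do.

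Among the receptors, Ackr3 (NM_001271607, chromosome 1, 92100555 to 92112297), an atypical receptor that takes up Cxcl12, had the largest rise in RANKL over both cultures. It had 5.85 and 5.37 in RANKL, 2.70 and 2.83 in ENRI, and 2.70 and 3.02 in WENRC. Only in RANKL were its libraries above the filter of 3.32, so it was tested through the culture in which it was high. The changes were 2.84 over ENRI (SE 0.23, limma FDR 0.00239) and 2.75 over WENRC (SE 0.23, FDR 0.00309), with 0.09 between WENRC and ENRI (95% interval -0.48 to 0.66). On the scale of the authors' deposited table, which is not drawn together at low values, the same changes were 9.84 and 8.24.

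Cxcr4 (NM_009911, chromosome 1, 130484776 to 130488876), the signalling receptor of Cxcl12, moved the same way at a low level. Its values were 4.57 and 4.48 in RANKL, 3.36 and 3.27 in ENRI, and 3.62 and 3.69 in WENRC. The changes were 1.21 over ENRI (SE 0.17, limma FDR 0.00787) and 0.87 over WENRC (SE 0.17, FDR 0.0259). The second was lost with libraries recentred on their upper quartiles, with the library number as a block, and without any 1 of the RANKL or WENRC libraries (adjusted p from 0.00895 to 0.215 over all alternatives). Their shared ligand Cxcl12 was not above 0.17 in any library.

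Ackr4 (NM_145700, chromosome 9, 104000468 to 104028973), an atypical receptor that takes up Ccl19, Ccl21 and Ccl25, was highest in ENRI. The libraries gave 8.38 and 8.18 in RANKL, 9.23 and 9.57 in ENRI, and 7.65 and 7.23 in WENRC, again without overlap. RANKL stood at -1.12 against ENRI (SE 0.21, limma FDR 0.0183) and WENRC at -1.96 (SE 0.21, FDR 0.00934), while RANKL against WENRC missed the threshold at 0.84 (FDR 0.0548). Ackr4 lies wholly within Acad11, an acyl-CoA dehydrogenase gene of the other strand, whose changes of -1.49 (limma FDR 0.0172), -2.23 (FDR 0.0109) and 0.74 (FDR 0.139) had the same signs, and reads of the pair cannot be told apart. Acad11 had 9.58 and 9.34 in RANKL, 10.60 and 11.30 in ENRI, and 8.94 and 8.50 in WENRC.

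**Figure D4:**
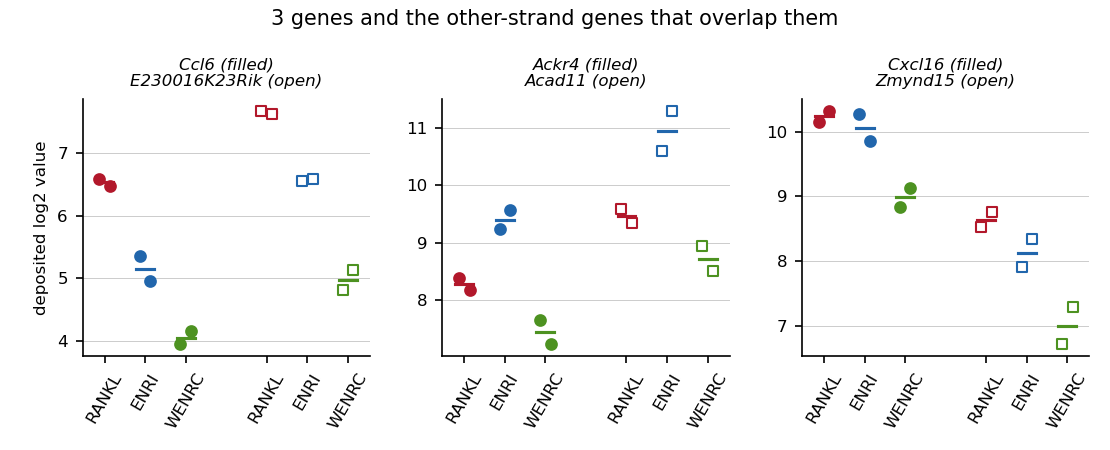
Deposited log2 GRO-seq values (vertical axis, own scale in each panel) of Ccl6, Ackr4 and Cxcl16 (filled) and of the gene of the other strand that overlaps each (open), by culture; points are libraries and bars the mean of 2. In Ccl6 and Ackr4 the cultures stand in the same order as in the overlapping gene.

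Ccr7 (NM_007719, chromosome 11, 99005513 to 99016391), the receptor of Ccl19 and Ccl21 that guides cells to lymphoid tissue, was lower in ENRI than in both other cultures. It had 4.21 and 4.29 in RANKL, 3.49 and 3.44 in ENRI, and 4.09 and 4.38 in WENRC. RANKL exceeded ENRI by 0.79 (SE 0.19, limma FDR 0.0329) and WENRC exceeded ENRI by 0.78 (SE 0.19, FDR 0.0443), whereas RANKL and WENRC overlapped (0.01, 95% interval -0.44 to 0.47). The first call remained under 6 of 14 alternatives and the second under 5 of 15, and each was lost without either RANKL library, either WENRC library or ENRI 2. The ligand genes Ccl19, Ccl21a, Ccl21b and Ccl21c were listed at 0. They are listed with 2, 2, 6 and 6 genomic copies, so their reads could be split between copies or left unassigned.

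Of the receptors of the ligands described, Ccr6 and Ccr1 were under the filter, so no call on them was possible. Ccr6, the receptor of Ccl20, had 3.22 and 2.86 in RANKL, 2.55 and 2.75 in ENRI, and 2.62 and 2.84 in WENRC and was not tested. Ccr1, which binds Ccl9 and Ccl6, lay between 1.84 and 2.23 in all libraries. Ccr9 (6.86 and 7.02 in RANKL, 6.81 and 7.02 in ENRI, 6.72 and 6.54 in WENRC) and Cxcr6 (5.46 and 5.46, 5.37 and 5.58, 5.58 and 5.47 in the same order) passed no test. Their changes in RANKL over ENRI had 95% intervals from -0.43 to 0.48 and from -0.47 to 0.44, but Cxcr6 lies inside Fyco1 of the other strand.

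Cxcr5 (NM_007551, chromosome 9, 44319870 to 44334504), the receptor by which B cells follow Cxcl13, had a pooled log2 level per kilobase of 3.55, beside 3.54 for Ackr4; in ENRI Ackr4 was higher (4.57 against 3.44). Its libraries overlapped in all cultures, with 7.74 and 7.33 in RANKL, 7.39 and 7.23 in ENRI, and 7.48 and 7.34 in WENRC (change of RANKL over ENRI 0.23, limma FDR 0.465). Ccl27a, Cxcl17 and Ccr10 were also tested and passed nothing, with changes of RANKL over ENRI of -0.02, 0.31 and -0.08. Ccl27b is listed with 3 genomic copies, so reads of the Ccl27 genes could be split between near-identical copies. Cxcl17 lies wholly within 4732471J01Rik of the other strand.

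Genes that act below chemokine receptors changed in part. Of 24 tested receptor signalling genes, 5 were higher and 1 lower in RANKL than in ENRI (median change 0.32), and 7 higher and 1 lower than in WENRC (median 0.53), against the shares of all genes given above. Rac2, a GTPase of cell motility, changed by 3.85 over ENRI (limma FDR 0.00293) and 3.49 over WENRC (FDR 0.00461). Arrb2, an arrestin that uncouples the receptors, changed by 1.83 and 1.31 (limma FDR 0.00421 and 0.0136), and Rgs2, which shortens G protein signals, by -1.47 and -1.06 (FDR 0.0118 and 0.0384). Of 15 NF-kB subunits and response genes, 12 were higher and 1 lower in RANKL than in ENRI (median 1.23). Against WENRC 12 were higher and 0 lower (median 2.09), with 0 lower also at an unadjusted p under 0.05. The smallest p in both comparisons was that of Tnfaip2, with changes of 4.87 and 4.68 (limma FDR 0.000963 and 0.00123). Icam1 had a larger change over ENRI (4.98, limma FDR 0.00215). Tnfaip2 is in the M cell list too.

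For H3K27me3 the authors listed regions with more tags in RANKL than in WENRC and the reverse. The fold of each region is the authors', and the difference has no replicate check. Within 5 kb of a start site, 17 regions higher in RANKL were assigned to 9 of the 47 genes (19.1%), where 19.7% of all genes had one. In the other direction, 10 regions higher in WENRC were assigned to 5 of the 47 (10.6%), where 5.54% of all genes had one. At any distance the shares were 36.2% against 34.6% and 31.9% against 24.6%. No gene of the family had both kinds of region within 5 kb, where 1.70% of all genes did.

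The 5 genes with a region higher in WENRC near the start included both Ccl9 and Ackr3. At Ccl9 the region chr11:83388041-83388746 (mm9), inside the gene and 3745 bp from its start, had 8 RANKL tags against 25.2 scaled WENRC tags (authors' fold 3.15). At Ackr3 the 2 regions chr1:92099226-92099726 and chr1:92102726-92103226, at -1079 and 2421 bp from the start, had 15 and 11 RANKL tags against 35.1 and 26.1 scaled WENRC tags (authors' fold 2.34 and 2.37). Beyond 5 kb Ackr3 also had 26 regions of the opposite direction, higher in RANKL, at 17.7 to 196.1 kb. Cxcr5, whose GRO-seq libraries overlapped, had regions at 761 and -3597 bp with 6 and 3 RANKL tags against 18 and 18.9 (authors' fold 3 and 6.3).

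The other 2 genes on that side were Ccr6 (982 and -2097 bp, authors' fold 2.52 and 3.3) and Cxcl13 (353, 3732 and -4844 bp, fold 4.28, 3.3 and 2.96), neither of which was tested for transcription. The genes with a region higher in RANKL included Ccr2 of the receptor cluster on chromosome 9, Cxcr3, Ackr2, Cxcl12 and Cxcl14, none of which reached the filter in GRO-seq, as was so for 29 of the 47 genes. Ccr2, a monocyte receptor with GRO-seq values from -0.63 to -0.52, had 3 such regions, the nearest at -978 bp with 68 RANKL tags against 27 (authors' fold 2.52). Cxcl5 had 1 at 176 bp (28 against 8.1 tags, authors' fold 3.46) and Ccl5 1 at 1496 bp (23 against 6.3, fold 3.65).

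Transcription and the mark could be set side by side in few genes. Of the 5 genes with a region higher in WENRC, 3 were tested, and 2 of them, Ccl9 and Ackr3, rose in RANKL over WENRC; of all 829 tested genes with such a region, 19.4% did. Ackr3 was tested only through its RANKL libraries. Of the 9 with a region higher in RANKL, only Ccl5 and Cxcr4 were tested; of all 2980 tested genes with such a region, 5.20% rose. Cxcr4 was called higher in RANKL although its region at -3546 bp was also higher there (34 against 16.2 tags, authors' fold 2.1). Ccl20, Ccl6 and Cxcl16, which rose in RANKL over WENRC, had no region within 5 kb assigned to them. Regions assigned to neighbouring genes were not counted here.

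**Figure D5:**
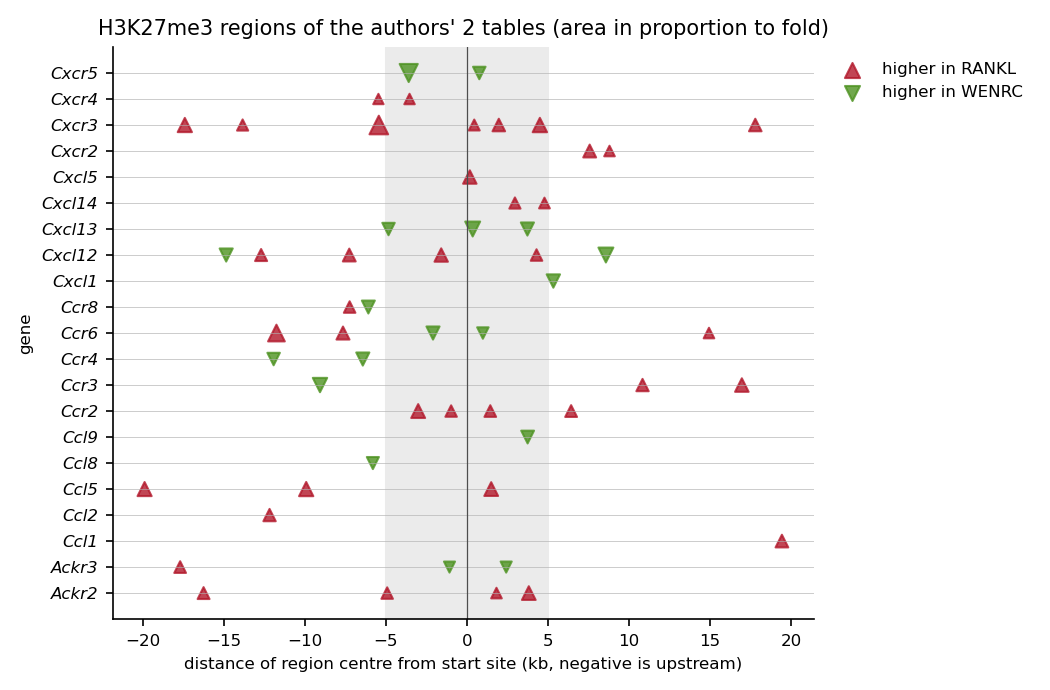
Regions of the authors' H3K27me3 lists assigned to chemokine and receptor genes, by distance of the region's centre from the start site (horizontal axis, kb, drawn within 20 kb and shaded within 5 kb); triangles up are higher in RANKL, triangles down higher in WENRC, and area is in proportion to the authors' fold. Within 5 kb, Ccl9, Ackr3, Ccr6, Cxcl13 and Cxcr5 hold only regions higher in WENRC, and Ackr2, Ccl5, Ccr2, Cxcl12, Cxcl14, Cxcl5, Cxcr3 and Cxcr4 hold only regions higher in RANKL.

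How far the calls rest on single libraries differed between comparisons. Without either RANKL library, Ccl9 and Ackr3 kept their calls over ENRI (limma FDR up to 0.0498 for each) and the other 4 higher genes and Ackr4 lost theirs; 111 (without RANKL 1) and 64 genes (without RANKL 2) of all 16563 then passed. Without either RANKL library, limma called 0 genes of the whole table between RANKL and WENRC, where 2702 and 2486 had an unadjusted p under 0.05, and Ccl9, Ccl20, Ackr3 and Ccl6 had adjusted p-values of up to 0.0562, 0.0541, 0.0562 and 0.0701. Cxcl16 and Cxcr4 lost their calls over WENRC without either WENRC library as well. In WENRC against ENRI, the 4 lower calls were lost without any 1 of the RANKL or WENRC libraries.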

How the data were processed

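For GRO-seq, HOMER was used by the authors to count reads over RefSeq genes of mm9, keeping 1 transcript a gene, and to compare all pairs of cultures, per the file headers; the submitters' processing notes name Bowtie2 2.3.4.1, HOMER, DESeq2 and mm9. The authors' log2 values come scaled across libraries and look like a regularized logarithm, which no header names and the values show. The authors' log2 fold changes were deposited second-named minus first-named and were turned here, and the authors' p-values and adjusted p-values were taken as deposited, where 1 also stands for genes that were not adjusted. H3K27me3 regions are deposited peaks of one culture with the other as control, per the file headers: RANKL tags are whole counts as deposited (held as a signal with a floor of 0.5 in the list of regions higher in WENRC), WENRC tags a signal the authors scaled, and the authors' fold a ratio of at least 2 with p-values of at most 9.87e-05.

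limma 3.58.1 (R 4.3.3) was run with a variance trend on all 6 libraries as 3 group means, over 16563 genes with at least 2 libraries at log2 of 10, with no pseudocount; tests are two-sided, adjusted by Benjamini-Hochberg over all genes and called under 0.05. The script was tested on simulated data. Of the tested genes, 3946 (23.8%) overlap another gene. In 26 rows a symbol stored as a date was restored. The gene group, its lists and these tests were chosen with earlier results of these data known. Described in full are genes called in any comparison, Ccl9, Ccl20 and the 5 highest per kilobase (11 in all); genes with a near H3K27me3 region and receptors of described ligands have values, and other lists counts and up to 4 genes of smallest p. ENRI and WENRC libraries of a number share a mouse per the labels (r of their deviations from the culture means 0.414 over genes); RANKL numbers name no animal (r -0.205 with ENRI and -0.323 with WENRC). Promoter sequences are RefSeq's on GRCm38.p6, matched by symbol; no coordinates were converted. Some items are counted but not reported here by name. Alternatives were other scalings, filters, fits, blocks, single libraries left out, and other distances or folds of regions.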

Additional observations from a re-analysis of the deposited data

How the results depend on the processing

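The 18 calls of single genes kept their direction in every alternative run, and the call held in 204 gene-by-alternative results and was lost in 67; Ccl9 and Ackr3 in RANKL over ENRI were called in 15 of 15. Leaving out 1 library at a time, called family genes ranged from 2 to 6 higher and 0 to 2 lower in RANKL over ENRI, 0 to 9 higher in RANKL over WENRC, and 0 to 2 higher and 0 to 6 lower in WENRC against ENRI; the lone library is then assumed to vary like the others. Ccr7 in WENRC over ENRI was lost, leaving 0 genes higher, with no filter, with a filter at log2 of 32, with the library number as a replicate block, with the 4 libraries alone, with these and the mouse as a block, and by the authors' adjusted p. With the 4 libraries alone 0 genes were lower in WENRC (6 at an unadjusted limma p under 0.05). Of all 16563 genes, 4074 then had such a p in either direction and 0 were called. Adding the mouse as a replicate block, an alternative chosen after seeing the data, left 1 gene lower, Ccl20. With the 4 libraries alone, RANKL over WENRC had 9 genes called higher, as the share of all genes called higher went from 8.53% to 18.1%. In the 6-library fit, the number block lost Ccr7 over ENRI and Cxcr4 over WENRC, and the mouse block added Cxcl10 in both RANKL comparisons and Ccl25 in WENRC against ENRI.

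Recentring on upper quartiles moved the median of all genes from -0.007 to -0.122 in RANKL over WENRC, with 1245 higher and 1091 lower calls in place of 1412 and 600, and from -0.014 to 0.099 in WENRC against ENRI, with 1646 and 1397 in place of 803 and 1613. Some uncalled changes turned sign when 1 library was left out: RANKL over ENRI in Ccl25 (range -0.862 to 0.044) and Cxcl16 (-0.034 to 0.378), RANKL over WENRC in Ccr7 (-0.131 to 0.16) and Cxcr5 (-0.079 to 0.331), and WENRC against ENRI in Ackr3 (-0.069 to 0.256) and Cxcl1 (-0.965 to 0.095). Ccr7 in RANKL over WENRC was also -0.1 when recentred and -0.023 with quantile normalization. The cause was not tested. H3K27me3 regions higher in RANKL numbered 4 within 1 kb, 92 at any distance and 0 within 5 kb at a fold of at least 4, against 17 within 5 kb; those higher in WENRC numbered 3, 32 and 2, against 10. Unknown GRO-seq depth limits what can be said of the 29 genes below the filter.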

Other observations

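Chemokine-type genes outside the name rule were looked at from a list of 16, of which 10 were tested. Cx3cl1, a membrane-bound ligand that attracts mononuclear cells, was highest in ENRI, with 9.64 and 9.85 there, 8.32 and 8.25 in RANKL, and 8.69 and 8.38 in WENRC. The ENRI libraries lay above the other 4, with a change of -1.46 in RANKL (limma FDR 0.00474) and -1.22 in WENRC (FDR 0.0129). Its receptor gene Cx3cr1 lay between 2.90 and 3.24 in all libraries and was not tested. Cklf, a chemokine-like factor, was higher in WENRC than in ENRI at the edge of the threshold (change 1.09, limma FDR 0.0499), with 6.98 and 6.99 in WENRC and 6.24 and 5.55 in ENRI.

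Of 12 stromal markers 3 were tested, and 1, Pdgfrb, was higher in RANKL than in both other cultures (9.21 and 9.26 in RANKL against 6.44 to 7.68). Acta2 (6.975 to 8.005 over all libraries) and Pecam1 (4.54 to 5.365) were also tested and passed no test. Pecam1 had 5.27 and 5.365 in RANKL, above 4.54 to 4.96 in the other libraries. Its changes were 0.67 over ENRI and 0.57 over WENRC (unadjusted limma p 0.0193 and 0.0361). Those of Acta2 were -0.39 and -0.60. Among the markers below the filter, Col1a1, Col3a1 and Dcn lay between 1.84 and 2.46 in all libraries and Lum near -2. Regions of the H3K27me3 lists were also assigned to family genes listed at 0 in GRO-seq, 4 higher in RANKL and 1 higher in WENRC.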
